A study of Mus musculus with 28 samples.

Results

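10 genes of inflammatory signalling were followed through sorted cells of mouse thyroid and salivary gland: the cytokine Il6, the chemokines Ccl2, Ccl7, Cxcl1, Cxcl2 and Cxcl12, the adhesion molecules Vcam1 and Icam1, and the NF-kB inhibitor genes Nfkbia and Nfkbiz. They were chosen by name, as 10 of 47643 genes counted in each library, and all 10 had reads. The cells came from H2B-GFP mice, in which green fluorescent protein is fused to a histone and is diluted as cells divide. Freshly sorted GFP+ and GFP− fractions were profiled by 3′ mRNA sequencing, with thyroid at 3, 6 and 9 months (4, 4 and 3 libraries per fraction) and salivary gland at 9 months (3 per fraction). All groups carried the reporter. The promoter that drives it, any labelling schedule, and the number of animals behind a library are not given in the sources used here, so GFP+ means label present at sorting. Because libraries were not stated to come from separate animals, the p-values speak of library-to-library spread, which may be technical.

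Il6 signals through its receptor and the shared subunit gp130 to the transcription factor Stat3. Ccl2 and Ccl7 attract monocytes, Cxcl1 and Cxcl2 attract neutrophils through the receptor Cxcr2, and Cxcl12 is a constitutive stromal chemokine that retains cells bearing Cxcr4. Vcam1 and Icam1 are surface proteins to which leukocyte integrins bind. Many of these genes are targets of NF-kB, a transcription factor held in the cytoplasm by inhibitors such as IkB-alpha, the product of Nfkbia, which NF-kB itself induces. Nfkbiz encodes a nuclear member of the same inhibitor family that acts as a cofactor at some NF-kB targets, Il6 among them. Fibroblasts, endothelial cells and leukocytes can all transcribe such genes.

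The RefSeq promoter table (GRCm38.p6) held windows for 6 of the 10 genes, Il6, Cxcl1, Cxcl2, Cxcl12, Icam1 and Nfkbia, from 250 bases before to 50 bases after the start. The windows were searched on both strands for GGGA, any base and then TTTCC, a strict 10-base form of the site that NF-kB binds. A match was found in 4 of these 6 windows and in 135 of all 32851 windows, or 0.411%. The 4 with a match are shown: Il6 and Cxcl1, which were called between the fractions, Cxcl2, which had too few reads to enter the fit, and Nfkbia, which did not pass the test. Each line gives the 250 bases before the start, 5′ to 3′ on the strand of the gene, with the matched bases in capitals.
Il6, chr5:30012864-30013113, plus strand: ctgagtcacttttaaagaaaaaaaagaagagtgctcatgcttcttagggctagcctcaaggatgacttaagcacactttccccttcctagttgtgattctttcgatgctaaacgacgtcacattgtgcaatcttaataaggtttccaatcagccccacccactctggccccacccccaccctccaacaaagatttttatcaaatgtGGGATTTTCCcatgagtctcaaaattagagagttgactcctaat
Cxcl1, chr5:90890995-90891244, plus strand: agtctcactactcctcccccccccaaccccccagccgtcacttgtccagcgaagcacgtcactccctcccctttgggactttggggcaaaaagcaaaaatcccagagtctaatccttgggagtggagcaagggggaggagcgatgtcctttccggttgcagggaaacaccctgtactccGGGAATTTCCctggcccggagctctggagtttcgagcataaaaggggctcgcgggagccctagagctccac
Cxcl2, chr5:90903649-90903898, plus strand: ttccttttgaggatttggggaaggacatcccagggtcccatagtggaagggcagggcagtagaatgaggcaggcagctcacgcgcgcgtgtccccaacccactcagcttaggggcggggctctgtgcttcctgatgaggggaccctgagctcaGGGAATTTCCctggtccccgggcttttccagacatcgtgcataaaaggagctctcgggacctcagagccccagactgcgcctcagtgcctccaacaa
Nfkbia, chr12:55492648-55492897, minus strand: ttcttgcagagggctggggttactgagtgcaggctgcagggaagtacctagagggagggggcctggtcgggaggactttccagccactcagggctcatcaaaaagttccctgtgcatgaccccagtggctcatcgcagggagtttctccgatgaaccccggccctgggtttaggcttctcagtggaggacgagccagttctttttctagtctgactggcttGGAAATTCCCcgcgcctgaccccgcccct
The match began 44 bases before the start in Il6, 71 in Cxcl1, 97 in Cxcl2 and 29 in Nfkbia. It read GGGATTTTCC in Il6 and GGGAATTTCC in Cxcl1 and Cxcl2. In Nfkbia it lay on the opposite strand, so the printed strand reads GGAAATTCCC. Cxcl1 and Cxcl2 start 12654 bases apart on chromosome 5, and the longest run of bases that their printed stretches share, 14 bases, begins with the match in both. The degenerate NF-kB consensus matched the same number of these windows, 4 of 6, and 8.46% of all windows. Cxcl12 and Icam1 held neither in the window, and forms of the site outside these patterns were not searched. A match is a description of the letters and not evidence of binding.

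Depth set what could be measured. Libraries held 507 to 209091 reads in genes, and 6 of the 28 held under 10000: replicates 1 and 2 of GFP+ thyroid at 3 months, replicate 4 of GFP+ at 6 months, replicate 2 of GFP− at 6 months, replicate 1 of GFP− at 9 months, and replicate 1 of GFP+ salivary gland. Levels are given as CPM, the reads of a gene scaled to the same total of gene reads in every library. A count of 0 allows up to 3 reads, which is 14.3 CPM in the deepest library and 5917 CPM in the shallowest, and this limit covers counting error only. In the GFP+ group at 3 months, 1 library, replicate 4, held 174957 of the 201054 reads. Markers followed the tissue labels. The summed level of 7 thyroid follicular genes was 2122 CPM in pooled GFP+ and 5480 CPM in pooled GFP− thyroid, against 0 and 56.4 CPM in GFP+ and GFP− salivary gland. In turn, 8 salivary acinar and duct genes had 96.6 and 60.6 CPM in GFP+ and GFP− thyroid, against 16291 and 33803 CPM in GFP+ and GFP− salivary gland. In bulk samples, fewer cells of a type and less RNA per cell cannot be told apart.

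**Figure D1:**
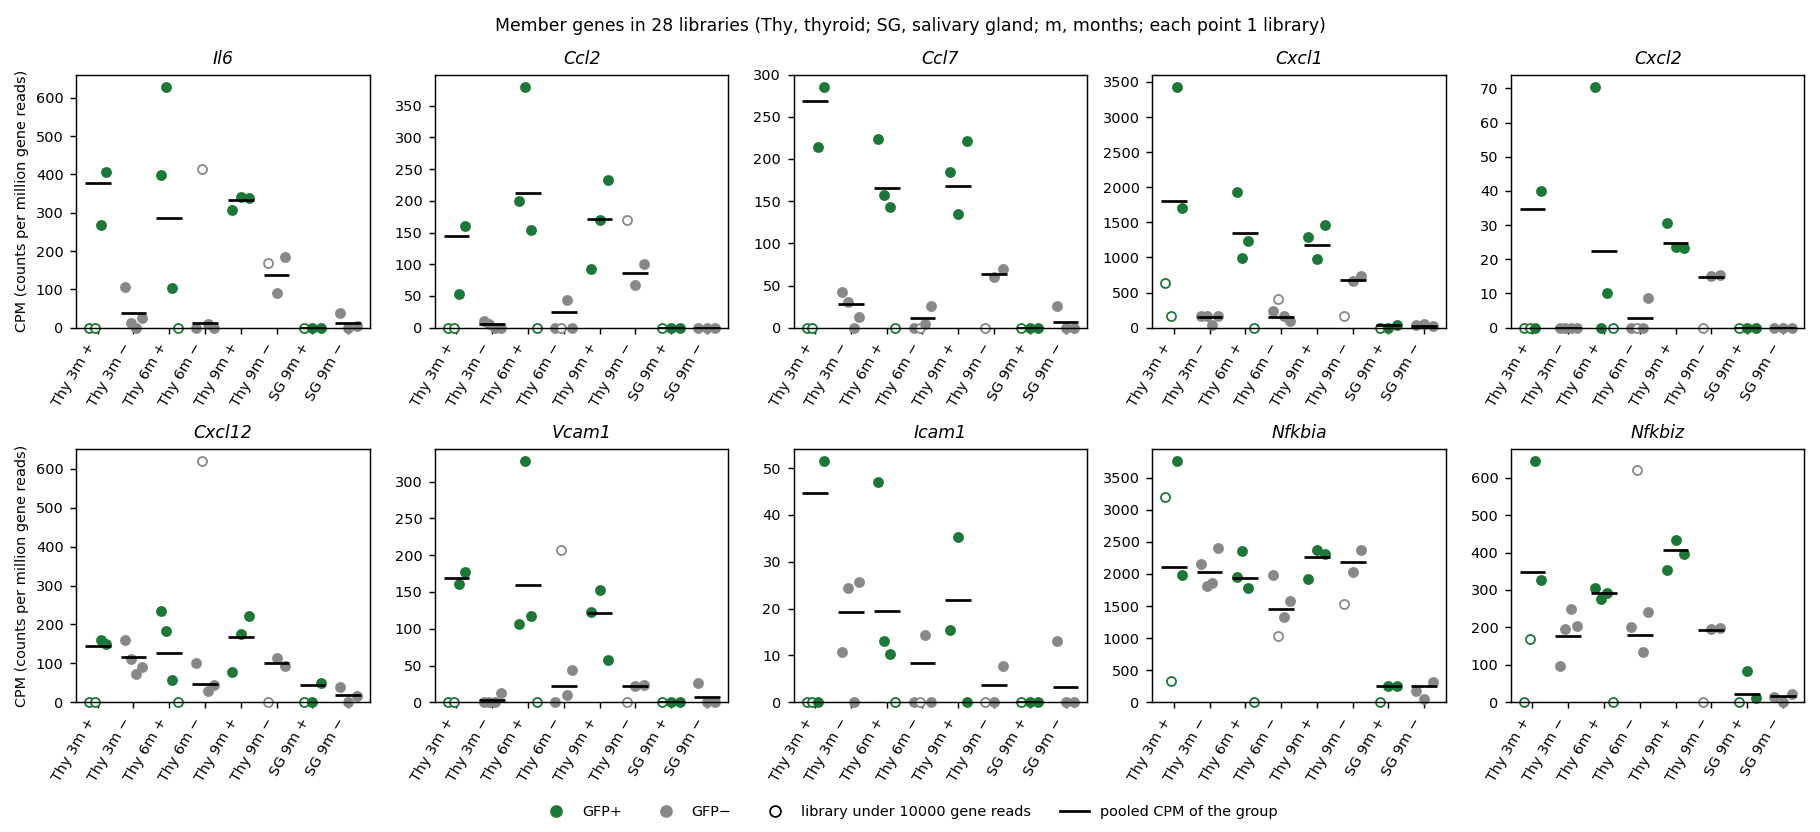
Level of each gene (CPM, linear axis from 0) in each of 28 libraries, by gland (Thy, SG), age in months (m) and fraction (+ left, − right). Points are libraries, open where the library held under 10000 gene reads, and bars are the pooled CPM of the group. Among filled points of thyroid, Cxcl1 was higher in every GFP+ library (981 to 3434 CPM) than in any GFP− library (35.8 to 729.6 CPM).

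Averaged over the 3 ages, Il6, Ccl2, Ccl7, Cxcl1 and Vcam1 were higher in GFP+ than in GFP− thyroid cells, by 2.14 to 3.06 on the log2 scale, while Cxcl12, Nfkbia and Nfkbiz did not pass the test. The fit was edgeR's quasi-likelihood test over 22 thyroid libraries and 1900 genes, with p-values adjusted over all of them and called under 0.05. Of all genes tested, 20.2% were called, with 11.4% higher in GFP+ and 8.79% lower. Cxcl2 and Icam1 had too few reads to enter the fit, so 8 of the 10 genes were tested, 5 of them called, and none was lower. Passing that filter depends on reads in either fraction, and Ccl2, Ccl7 and Vcam1 passed it through GFP+ libraries, the fraction where they were called higher. They had 160, 167 and 130 reads in GFP+ against 34, 31 and 15 reads in GFP− thyroid. The count therefore describes these 8 genes and is no evidence about the group.

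Il6, the cytokine of the set, had 0, 0, 268 and 406 CPM in GFP+ libraries at 3 months, 399.7, 629, 102 and 0 CPM at 6 months, and 307.2, 341 and 337 CPM at 9 months. In GFP− libraries it had 107, 12.2, 0 and 25.6 CPM at 3 months, 0, 413, 9.56 and 0 CPM at 6 months, and 170.0, 90.5 and 184 CPM at 9 months. All 3 zeros of the GFP+ fraction were libraries under 10000 gene reads, and the 413 CPM in GFP− cells came from 2 reads in another. At 9 months, every GFP+ library was above every GFP− library. The log2 fold change of Il6 over the 3 ages was 2.56 ± 0.44 (SE, edgeR adjusted p = 2.85e-07), from 285 reads in GFP+ and 55 reads in GFP− cells.

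Ccl2 and Ccl7, neighbouring genes for monocyte chemokines on chromosome 11, had similar patterns. Ccl2 had 0, 0, 53.7 and 160.0 CPM in GFP+ libraries at 3 months, 199.8, 380.0, 153 and 0 CPM at 6 months, and 92.1, 170.4 and 233 CPM at 9 months. In GFP− libraries Ccl2 had 10.7, 6.12, 0 and 0 CPM at 3 months, 0, 0, 43.0 and 0 CPM at 6 months, and 170.0, 67.9 and 99.8 CPM at 9 months. The fractions overlapped at 9 months, where the GFP− library at 170.0 CPM held 1 read of the gene. Libraries of at least 10000 gene reads overlapped as well, with 99.8 CPM in GFP− replicate 3 and 92.1 CPM in GFP+ replicate 1. Ccl2 had a log2 fold change of 2.48 ± 0.48 over the 3 ages (edgeR adjusted p = 6.17e-06). It moved to 1.78 (edgeR adjusted p = 0.143) without replicate 4 of GFP+ thyroid at 3 months, and to 3.86 without replicate 3 of GFP− thyroid at 6 months.

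Ccl7 had 0, 0, 215 and 286 CPM in GFP+ libraries at 3 months, 223, 157, 143 and 0 CPM at 6 months, and 184, 135 and 221 CPM at 9 months. In GFP− libraries it had 42.9, 30.6, 0 and 12.8 CPM at 3 months, 0, 0, 4.78 and 26.0 CPM at 6 months, and 0, 60.3 and 69.1 CPM at 9 months. Every GFP+ library of at least 10000 gene reads lay above every GFP− library, 135 CPM being the lowest of them and 69.1 CPM the highest GFP− value. The log2 fold change of Ccl7 was 2.42 ± 0.45 (edgeR adjusted p = 3.00e-06).

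Cxcl1, a neutrophil chemokine, had the most reads of the secreted members, 1529 over the 28 libraries. It had 640.2, 169.6, 3434 and 1698 CPM in GFP+ libraries at 3 months, 1939, 996, 1233 and 0 CPM at 6 months, and 1290.1, 981 and 1465 CPM at 9 months. In GFP− libraries Cxcl1 had 172, 165, 35.8 and 167 CPM at 3 months, 235, 413, 163 and 95.3 CPM at 6 months, and 170.0, 664 and 729.6 CPM at 9 months. Among libraries of at least 10000 gene reads, both GFP+ values at 3 months lay above all 3 at 9 months, and both GFP− values at 9 months lay above all GFP− values at 3 and 6 months. The log2 fold change of Cxcl1 was 2.14 ± 0.42 over the 3 ages (edgeR adjusted p = 9.34e-06).

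Cxcl2, which shares the receptor Cxcr2 with Cxcl1, gave 23 reads in GFP+ and 5 reads in GFP− thyroid, a pooled ratio of 5.18 with an exact 95% counting interval of 1.93 to 17.4. It had reads in 6 of 11 GFP+ and 3 of 11 GFP− libraries. With no filter on low counts, its log2 fold change was 2.31 (edgeR adjusted p = 0.0742), short of the call. Cxcl12, the constitutive chemokine, ranged from 0 to 235 CPM in GFP+ libraries with a median of 149 CPM, and from 0 to 619 CPM in GFP− libraries with a median of 92.2 CPM. All zeros of Cxcl12 in thyroid, and the 619 CPM from 3 reads, came from libraries under 10000 gene reads. The fractions overlapped throughout, and the log2 fold change of Cxcl12 was 0.42 ± 0.40 (edgeR adjusted p = 0.571). It was 0.74 ± 0.38 without those libraries (adjusted p = 0.177). Pooled, Cxcl12 gave 128 reads in GFP+ and 86 in GFP− thyroid, a ratio of 1.68 (exact 95% counting interval 1.265 to 2.23).

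Vcam1, the receptor for the integrin VLA-4, had the largest fold change of the 8. It had 0, 0, 161 and 177 CPM in GFP+ libraries at 3 months, 106, 328, 118 and 0 CPM at 6 months, and 123, 153 and 58.1 CPM at 9 months. In GFP− libraries Vcam1 had 0, 0, 0 and 12.8 CPM at 3 months, 0, 206, 9.56 and 43.3 CPM at 6 months, and 0, 22.6 and 23.0 CPM at 9 months. The 206 CPM in GFP− cells was 1 read of a shallow library, and all other GFP− values lay below every GFP+ library of at least 10000 gene reads. Its log2 fold change was 3.06 ± 0.56 (edgeR adjusted p = 1.69e-06). Icam1, the ligand of the integrin LFA-1, gave 23 reads in GFP+ and 11 reads in GFP− thyroid, a pooled ratio of 2.35 (exact 95% counting interval 1.10 to 5.35). Without the filter, Icam1 had a log2 fold change of 1.19 (edgeR adjusted p = 0.602).

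Nfkbia, the gene for IkB-alpha, ranged from 0 to 3756 CPM in GFP+ libraries with a median of 1989 CPM, and from 1032 to 2410 CPM in GFP− libraries with a median of 1860 CPM. Pooled, it gave 1847 reads in each fraction. Its log2 fold change was −0.18 ± 0.45 (edgeR adjusted p = 0.873), and 0.05 ± 0.18 without the libraries under 10000 gene reads, so its direction depended on those libraries. Nfkbiz ranged from 0 to 644 CPM in GFP+ libraries (median 305.6 CPM) and from 0 to 619 CPM in GFP− libraries (median 199.7 CPM). Its log2 fold change was 0.55 ± 0.37 (edgeR adjusted p = 0.351), and 0.77 ± 0.28 without the libraries under 10000 gene reads, where it was called (edgeR adjusted p = 0.0358).

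**Figure D2:**
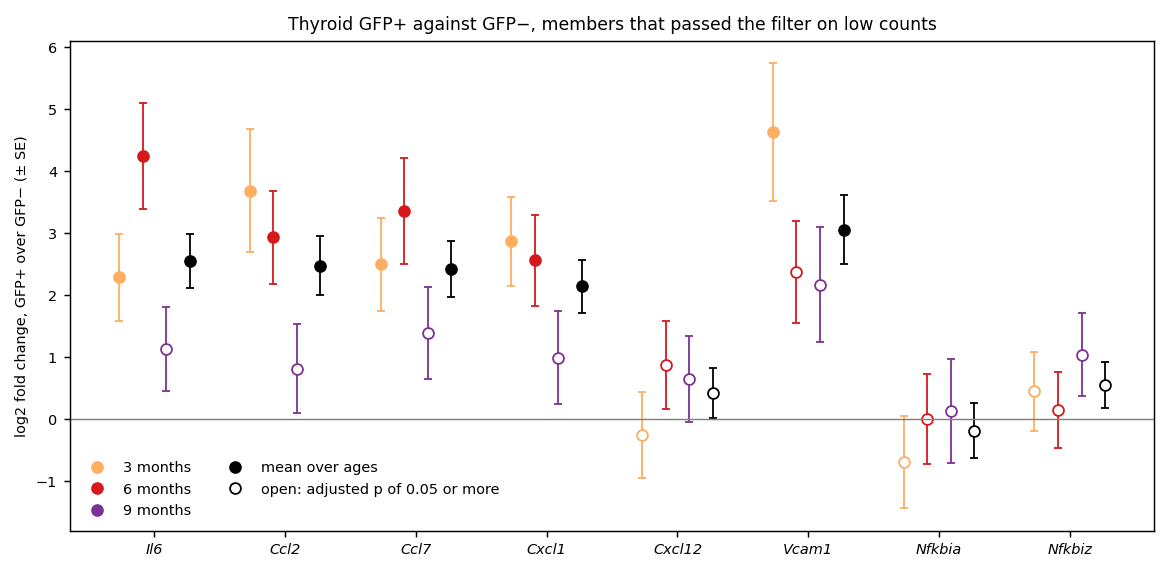
Log2 fold change of GFP+ over GFP− thyroid (± SE) for the 8 genes that entered the fit, at 3, 6 and 9 months and as the mean over ages. Filled points were called (edgeR adjusted p under 0.05) and open points were not. The mean over ages was called for Il6, Ccl2, Ccl7, Cxcl1 and Vcam1, and no gene was called at 9 months.

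By age, the difference was called at 3 and 6 months. At 3 months, 9.68% of all genes were called, 4.95% higher and 4.74% lower in GFP+, and 5 of the 8 genes were called higher: Vcam1 (log2 fold change 4.63 ± 1.11), Ccl2 (3.69 ± 0.99), Cxcl1 (2.87 ± 0.72), Ccl7 (2.50 ± 0.75) and Il6 (2.29 ± 0.71), with edgeR adjusted p from 0.00154 to 0.0185. These rested largely on replicate 4 of the GFP+ group: without it Cxcl1 alone was called, and the log2 fold change was 1.07 for Il6, 1.57 for Ccl2, 1.37 for Ccl7 and 3.67 for Vcam1. Without replicate 2 of the GFP− group, Il6 (1.63) and Ccl7 (2.41) lost the call, and without replicate 4 of that group Il6 (1.98) and Ccl7 (2.17) did. Il6 also lost the call without any of 5 libraries at 9 months (log2 fold change 2.05 to 2.19), and Ccl7 without either of 2 of these. Vcam1 moved to 3.84 without replicate 2 and to 6.19 without replicate 4 of the GFP− group, Il6 to 3.61 without replicate 1 of that group, and Cxcl1 to 2.13 without replicate 3 of the GFP+ group. DESeq2 called 2 of the 5, Cxcl1 and Vcam1, and edgeR with no filter on low counts called 0.

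At 6 months, 7.11% of all genes were called, 5.26% higher and 1.84% lower in GFP+. The genes called higher were Il6 (log2 fold change 4.25 ± 0.86, edgeR adjusted p = 1.42e-04), Ccl7 (3.36 ± 0.86, adjusted p = 0.00329), Ccl2 (2.93 ± 0.75, adjusted p = 0.00329) and Cxcl1 (2.56 ± 0.73, adjusted p = 0.0108). Vcam1, at 2.38 ± 0.83, had an adjusted p of 0.0562, and 0.0101 without the libraries under 10000 gene reads. The Ccl2 value was 7.10 without replicate 3 of GFP− thyroid, the 1 library of its group with reads of the gene, so it has no firm size. The Il6 value was 5.27 without replicate 2 of GFP− thyroid and 3.62 without replicate 4, and Ccl7 was 4.64 without replicate 4. Leaving out that replicate also ended the calls of Cxcl1 and Ccl2, and leaving out replicate 3 ended that of Ccl7. Cxcl1 also lost its call without replicate 1 of GFP+ thyroid (edgeR adjusted p = 0.0528) and without replicate 2 of GFP+ thyroid at 9 months (adjusted p = 0.0538). DESeq2 called 3 of the 4 and not Ccl2, which lay just over the threshold, and edgeR with no filter on low counts called 0 at 6 months.

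At 9 months, 1.89% of all genes were called, 0.263% higher and 1.63% lower in GFP+, and 0 of the 8 genes were called. Vcam1 was the 1 gene at an unadjusted p under 0.05, with a log2 fold change of 2.18 ± 0.93 (unadjusted p = 0.0190, edgeR adjusted p = 0.341). The others ran from 0.14 ± 0.84 (Nfkbia) to 1.40 ± 0.74 (Ccl7), and DESeq2 also called 0. Whether the fold changes differed between ages was tested as an interaction. It called 0.158% of all genes and 0 of the 8, with Il6 (unadjusted p = 0.0203) and Ccl2 (unadjusted p = 0.0316) the lowest and edgeR adjusted p of 0.896 and 1. Without the libraries under 10000 gene reads, Cxcl1 was called (edgeR adjusted p = 0.000687) and Il6 was not (adjusted p = 0.0582), so the difference in Cxcl1 between ages depended on leaving those libraries out.

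Levels were also followed by age within each fraction. Within GFP+ cells, 1.58% of all genes differed over the 3 ages, and 0 of the 8 did, with unadjusted p from 0.220 (Ccl2) to 0.990 (Cxcl1). Pooled Cxcl1 was 1805, 1349 and 1173 CPM in GFP+ cells at 3, 6 and 9 months, and pooled Il6 was 378, 285 and 333 CPM. Within GFP− cells, 1.53% of all genes differed over the ages and 0 of the 8 did, although Il6, Ccl2 and Cxcl1 had unadjusted p of 0.00242, 0.00115 and 0.0172. Pooled Cxcl1 was 157, 150.3 and 685 CPM in GFP− cells at 3, 6 and 9 months, pooled Il6 was 38.6, 11.1 and 138 CPM, and pooled Ccl2 was 5.51, 25.1 and 85.6 CPM. Cxcl12, by contrast, had 116, 47.3 and 100.5 CPM, and Nfkbia 2031, 1456 and 2185 CPM.

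Comparing 9 with 3 months within GFP− cells, 0.684% of all genes were called, and Ccl2 was the 1 of the 8 called (log2 fold change 3.62 ± 1.01, edgeR adjusted p = 0.0499). That call rests on 23 reads at 9 months and 2 reads at 3 months, a pooled ratio of 15.5 with an exact 95% counting interval of 3.84 to 136, and DESeq2 did not make it. It was also lost with no filter on low counts, with DESeq2's size factors, with all 28 libraries in 1 fit and without ribosomal RNA rows, when any of the GFP− libraries at 3 or 9 months was left out (edgeR adjusted p from 0.0671 to 0.576), and in most fits without another thyroid library. Cxcl1, at 1.86 ± 0.73, was not called (edgeR adjusted p = 0.270), but was without the libraries under 10000 gene reads (2.23 ± 0.39, adjusted p = 6.82e-05). In that setting Cxcl1, Il6 and Ccl2 also differed over the 3 ages within GFP− cells (edgeR adjusted p = 1.78e-05, 0.00493 and 0.0297). Comparing 9 with 3 months within GFP+ cells, 0.947% of all genes were called (0.632% higher and 0.316% lower at 9 months) and 0 of the 8, with log2 fold changes from −0.07 ± 0.74 (Vcam1) to 0.75 ± 0.70 (Ccl2).

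Markers of several cell types also differed between the thyroid fractions, some higher and some lower in GFP+ cells. All 8 of 8 fibroblast markers (Col1a1, Col1a2, Col3a1, Dcn, Lum, Pdgfra, Dpt and Bgn) were called higher in GFP+ thyroid over the 3 ages, and their median log2 fold change was 2.13, where that of all tested genes was −0.08. Their summed level ranged from 0 to 18233 CPM over 11 GFP+ libraries and from 1073 to 8694 CPM over 11 GFP− libraries. The 0 came from a library of 507 gene reads. Every GFP+ library of at least 10000 gene reads, the lowest at 9462 CPM, lay above every GFP− library. The pooled level was 14618, 13072 and 16733 CPM in GFP+ cells at 3, 6 and 9 months, against 1712, 1570 and 7317 CPM in GFP− cells, so GFP− cells at 9 months were also high in fibroblast markers. The part of these markers in the results above was not tested. Pericyte and smooth muscle markers were called higher for 3 of 5 tested, and 7 of 7 endothelial markers tested were lower, with a median log2 fold change of −3.44. Of 4 thyroid follicular markers tested, 3 were called lower over the 3 ages (median log2 fold change −2.09) and 4 at 9 months (median −3.75). Also at 9 months, 6 of 7 endothelial markers were called lower. At that age 0 of 8 fibroblast markers (median 1.39) and 0 of 5 pericyte and smooth muscle markers (median 0.22) were called.

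Set against fibroblast marker reads, a scale chosen after the data were seen, the members differed among themselves. Cxcl1 gave 124, 103 and 70.1 reads per 1000 fibroblast marker reads in GFP+ cells at 3, 6 and 9 months, against 91.8, 95.7 and 93.6 in GFP− cells. Il6 gave 25.9, 21.8 and 19.9 in GFP+ cells, against 22.5, 7.09 and 18.8 in GFP− cells. Vcam1 gave 11.6, 12.2 and 7.25 in GFP+ cells, against 1.61, 14.2 and 3.05 in GFP− cells, the GFP− values from 1, 8 and 6 reads. It was thus higher in GFP+ cells at 3 and 9 months on this scale, though the counting intervals of the fractions overlapped. Ccl2 gave 9.87, 16.3 and 10.2 against 3.22, 16.0 and 11.7, and Ccl7 gave 18.4, 12.6 and 10.04 against 16.1, 7.09 and 8.65. Il6 and Ccl7 were thus higher in GFP+ cells at each age, also with overlapping intervals. Cxcl2 and Icam1 gave at most 9 reads in any group. Cxcl12 gave 9.87, 9.63 and 10.04 reads per 1000 in GFP+ cells, against 67.6, 30.1 and 13.7 in GFP− cells. Nfkbia gave 145, 149 and 135 in GFP+ cells, against 1187, 927 and 298.6 in GFP− cells, and Nfkbiz 23.8, 22.3 and 24.4 against 103, 115 and 26.5. Relative to fibroblast markers, both NF-kB inhibitor genes and Cxcl12 were higher in GFP− than in GFP+ cells at 3 and 6 months, whereas Cxcl1 lay between 70.1 and 124 in all 6 groups. No test was made of these ratios.

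**Figure D3:**
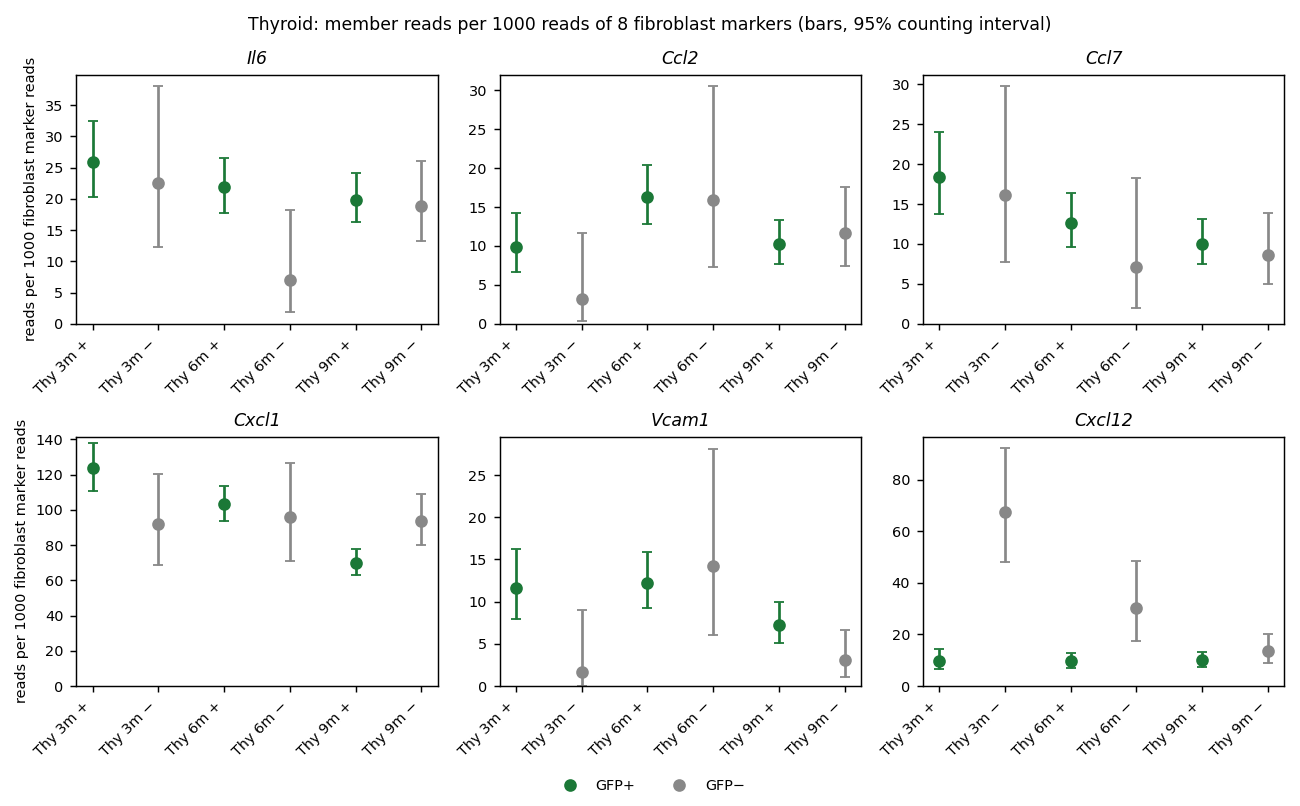
Reads of 6 genes per 1000 reads of 8 fibroblast markers in pooled thyroid libraries, by age in months (m) and fraction (+ left, − right). Bars are exact 95% counting intervals, which leave out the spread between libraries. Cxcl1 lies between 70.1 and 124 in all 6 groups, higher in GFP+ cells at 3 and 6 months and lower at 9 months. Cxcl12 is higher in GFP− cells, at 67.6 and 30.1, than in GFP+ cells at 3 and 6 months.

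Leukocyte markers were at or near 0. Of 13 such genes, Ptprc, Cd3e, Cd79a and S100a8 had 0 reads in all 28 libraries, which allows up to 1.33 CPM over their 2263832 reads. The summed level of the list was 0 in the median GFP+ and the median GFP− thyroid library, with highest values of 251 and 218 CPM, and Lyz2 at 3 months, with 44 reads in GFP+ and 20 in GFP− cells, made up nearly all of it. None of the list entered the fit. Of 10 genes that tissue dissociation can induce, 0 were called higher in GFP+ thyroid and 3 lower, the immediate early gene Ier2 and the heat shock chaperone genes Hspa1a and Hspa1b, with a median log2 fold change of −0.60.

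The surrounding pathway was described with lists of genes, over the 3 ages in thyroid, where 11.4% of all genes tested were called higher and 8.79% lower, with a median log2 fold change of −0.08. A list gene could enter the fit through reads in 1 fraction alone, so the counts called are no evidence about the lists. Of 18 further cytokines, 2 were tested and 1 was called, Il33, an alarmin of stromal and barrier cells (log2 fold change 1.82 ± 0.54, edgeR adjusted p = 0.00532), with pooled levels of 100.02 CPM in GFP+ and 30.3 CPM in GFP− cells. Of 24 further chemokines, 4 were tested and all 4 called. The 3 called higher had most of their thyroid reads in GFP+ cells (Ccl11 140 against 24, Cxcl10 91 against 33, Cxcl14 111 against 58). Ccl11, the eosinophil chemokine eotaxin (2.55 ± 0.49), Cxcl10, an interferon-induced chemokine (1.58 ± 0.53), and Cxcl14 (1.56 ± 0.48) rose, and Cxcl13, the B cell chemokine, fell by 1.32 ± 0.42. Ccl11 had 159 CPM in GFP+ and 24.2 CPM in GFP− cells pooled, and Cxcl13 had 68.2 CPM in GFP+ and 149 CPM in GFP− cells. Of the 24 chemokine genes, 9 had 0 reads in all 28 libraries, Ccl3, Ccl4 and Ccl5 among them, named after their values were seen.

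Of 20 receptors, 5 were tested and 0 called (1 at an unadjusted p under 0.05). The 2 with the most reads were Ackr3, a scavenging receptor for Cxcl12 (log2 fold change 0.42 ± 0.37, edgeR adjusted p = 0.530), and Il6st, which encodes gp130 (0.64 ± 0.38, adjusted p = 0.287). Il6ra, the Il6-binding subunit, named after its values were seen, gave 63 reads in GFP+ and 16 in GFP− thyroid and did not enter the fit. The chemokine receptors Ccr1, Ccr2 and Cxcr2, also named after their values were seen, had 0 reads in all 28 libraries. These receptors, which carry the response of leukocytes to Ccl2, Ccl7, Cxcl1 and Cxcl2, were not detectable at this depth in sorts where the ligands were.

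Of 18 further leukocyte adhesion genes, 7 were tested, 2 called higher and 3 lower, with a median log2 fold change of 0.11. Vcan, a matrix proteoglycan (2.58 ± 0.45), and Cd44, the hyaluronan receptor (1.65 ± 0.42), rose. Mcam (fell by 1.75 ± 0.43) and Jam3 (fell by 1.61 ± 0.53), junctional molecules of vessels, were lower. Of 26 NF-kB subunits and regulators, 2 were tested and 1 called, Nfkb1, which encodes the p105 precursor of p50 (1.38 ± 0.43, edgeR adjusted p = 0.00840). Of 20 other targets of NF-kB or Il6, 14 were tested, 7 called higher and 0 lower, with a median log2 fold change of 1.001. The 4 with the lowest adjusted p were Has1, a hyaluronan synthase (2.57 ± 0.40), Ptgs2, the inducible cyclooxygenase (2.47 ± 0.51), Tnfaip6, a hyaluronan-binding protein (1.89 ± 0.42), and Steap4, a metalloreductase (1.95 ± 0.54). Socs3 (−0.18 ± 0.37) and Zfp36 (−0.15 ± 0.39), feedback genes of the same pathways named after their values were seen, did not pass the test. Irf1, an interferon regulatory factor (−0.85 ± 0.38, edgeR adjusted p = 0.101), and Ier3, an early response gene (−0.86 ± 0.38, adjusted p = 0.104), also named after their values were seen, had lower levels in GFP+ cells short of the call. At 3 months Irf1 was called lower (−2.09 ± 0.66, edgeR adjusted p = 0.0219). The lists were written with earlier results of these data known, so their counts describe the data and are not independent evidence.

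Over the 17 thyroid libraries of at least 10000 gene reads, members were also compared with other tested genes by Pearson's r of log2 CPM, as a description. These points share the sort and the depth of a library, so genes that follow the fraction correlate. The ranking left out the other members, predicted genes, Rik genes, pseudogenes and identifiers without a symbol. Cxcl1 was most like Fbln2 (r = 0.95), Vcan (0.94) and Dcn (0.94), genes of the extracellular matrix, and Il6 was most like Scn7a (0.96), Bgn (0.93) and Adamts5 (0.93). Nfkbia was most like Tns1 (0.73), and Nfkbiz was most like Celf2 (0.75). Between members, r among Il6, Ccl2, Ccl7 and Cxcl1 was 0.81 to 0.91, while Nfkbia had r from −0.08 to 0.30 with the other 7.

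At 9 months the same genes were set against salivary gland, in a fit of 12 libraries and 974 genes in which 6 of the 10 members were tested (not Cxcl2, Cxcl12, Vcam1 or Icam1). Of the 6, all but Nfkbia passed the filter on low counts through thyroid libraries alone. Calls higher in thyroid therefore describe these genes and are no evidence about the group. Among GFP+ cells, 14.6% of all genes were called, 9.55% higher and 5.03% lower in thyroid. The median log2 fold change of all genes tested was 1.16, so fold changes in this comparison are not centred on 0. Of the 6 members Il6 and Cxcl1 were called higher, though neither with no filter on low counts. Il6 had 307.2, 341 and 337 CPM in thyroid and 0 reads in all 3 salivary libraries, which makes it at least 10.2-fold higher against 3 reads over that group (edgeR adjusted p = 0.0301). That bound rests largely on salivary replicate 3, with 79225 of the 92013 gene reads of its group. In replicates 1 and 2, a count of 0 allows up to 3021 and 254 CPM. Without ribosomal RNA rows the bound is lower, as Il6 had 497 CPM in pooled thyroid and 3 reads were 80.2 CPM in the pooled salivary group. Cxcl1 had 1290.1, 981 and 1465 CPM in thyroid, against 0, 0 and 37.9 CPM in salivary gland (log2 fold change 3.45 ± 1.10, edgeR adjusted p = 0.0212). On CPM without TMM, another scale than the fitted value, the Cxcl1 ratio of pooled reads was 21.8 without ribosomal RNA rows and 35.98 with them. The latter had an exact 95% counting interval of 12.2 to 175, from 377 reads in thyroid and 3 reads in salivary gland. All 3 of those reads lay in salivary replicate 3, without which the fitted value has no firm size. The Cxcl1 call was lost without replicate 2 of the salivary group (3.21, edgeR adjusted p = 0.109) and without replicate 3 of the thyroid group (3.32, adjusted p = 0.0567).

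Il6 lost its call without any 1 of the salivary GFP+ libraries, or without replicate 2 or 3 of the thyroid group (edgeR adjusted p from 0.0563 to 0.154). Nfkbia, in contrast, was read in both glands, with 1919.8, 2373 and 2314 CPM in thyroid against 0, 254 and 252 CPM in salivary gland, and was not called (log2 fold change 1.58 ± 1.0, edgeR adjusted p = 0.261). The fibroblast marker level was 16733 CPM in pooled GFP+ and 7317 CPM in pooled GFP− thyroid cells at 9 months, against 141 and 226 CPM in salivary gland, and its part in the difference was not tested.

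Among GFP− cells, 14.2% of all genes were called, 9.86% higher and 4.31% lower in thyroid. The median log2 fold change of all genes tested was 0.17, and Ccl2 was the 1 member called. It had 170.0, 67.9 and 99.8 CPM in thyroid and 0 reads in all 3 salivary libraries, at least 8.60-fold higher against 3 reads over that group (edgeR adjusted p = 0.0361). Without ribosomal RNA rows that bound is lower, with 133 CPM in pooled thyroid and 7.52 CPM for 1 read in the pooled salivary group. The call was lost without any 1 salivary GFP− library or without thyroid GFP− replicate 2 or 3, without any 1 of 3 GFP+ libraries of the same fit, with all 28 libraries in 1 fit, and with no filter on low counts (adjusted p = 0.312). DESeq2 did not call Ccl2 (adjusted p = 0.0836) and called Cxcl1 (adjusted p = 0.0162). Cxcl1 had 170.0, 664 and 729.6 CPM in thyroid against 39.2, 55.4 and 21.2 CPM in salivary gland (2.31 ± 0.94, edgeR adjusted p = 0.0836), and was called without the libraries under 10000 gene reads (2.71 ± 0.80, adjusted p = 0.00926).

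Within salivary gland the members could hardly be compared. The pooled libraries gave 0 to 9 reads per fraction of each member other than Nfkbia. Nfkbia had 23 reads in GFP+ and 76 in GFP− cells, a pooled ratio of 0.991 with an exact 95% counting interval of 0.593 to 1.60. The fit called 0 of 974 genes between salivary fractions (97 at an unadjusted p under 0.05), and 0 members at either threshold. The interaction of fraction and gland also called 0 genes (89 at an unadjusted p under 0.05), with 0 members at either threshold. A difference between glands in the effect of the sort was thus not detectable at this depth.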

How the data were processed

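Gene counts were used as the authors deposited them, 1 table per library for 28 libraries. A column kit with DNase digestion and a 3′ mRNA library kit were used, per the labels' protocols. The submitters' processing notes name bcl2fastq and the mm9 build. The aligner and counter are not given in the sources used here. Counts for 47643 genes were used, and the 5 summary lines of each table were left out; reads in no feature were 13.3 to 85.8% of all reads in a table. Symbols came from GENCODE vM21 names (47224 identifiers matched, 419 did not). Ribosomal RNA rows held 25.1 to 63.8% of gene reads and were kept. No pair of libraries within a group was identical (36 pairs, lowest chi-square per degree of freedom 1.56).

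Levels are CPM over gene rows, without TMM. Tests used edgeR 4.0.16 in R 4.3.3 with TMM factors (0.582 to 10.5 in thyroid, 0.269 to 7.48 in the fit at 9 months), filterByExpr (minimum count 10, total 15), a robust quasi-likelihood fit and p-values adjusted by Benjamini-Hochberg. The thyroid fit held 22 libraries in 6 groups and the fit at 9 months 12 libraries in 4 groups. SE is the log2 fold change divided by the square root of the F statistic. Alternatives were DESeq2 1.42.0, its size factors, other filters, all 28 libraries in 1 fit, libraries or ribosomal RNA rows left out, and replicate blocks. Named genes were the 10 members and, of each pathway list, up to 4 called genes by adjusted p, or the 2 with most reads where none was called; the text says where a further gene was named after its values were seen. The members, lists and tests were chosen with earlier results of these data known. Promoter sequences are from RefSeq (GRCm38.p6), read by symbol.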

Additional observations from a re-analysis of the deposited data

Results flagged for a closer look

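In groups of 4 libraries, the highest or lowest library was set against the gap to the next one. For continuous values chance alone flags about 1 of 20 groups, but a group with reads in 1 of its 4 libraries always stands out by this measure, so that rate does not apply to sparse counts. Of 39 groups of values tested, 11 held a library that stood apart, and in 6 of them the other 3 libraries had 0 reads. In GFP+ thyroid at 3 months, replicate 4, the deepest of its group, stood high for Cxcl2 (40.0 CPM, 7 reads) and Icam1 (51.4 CPM, 9 reads), with 0 in the other 3 libraries. In GFP+ thyroid at 6 months, replicate 1 was high for Cxcl2 (70.5 CPM, 6 reads), and replicate 4, with 507 gene reads, was low for Nfkbiz (0 CPM). In GFP− thyroid at 3 months, replicate 3 was low for Cxcl1 (35.8 CPM, 1 read) and replicate 4 high for Vcam1 (12.8 CPM, 1 read). In GFP− thyroid at 6 months, replicate 2, with 4845 gene reads, was high for Il6 (413 CPM, 2 reads) and Cxcl12 (619 CPM, 3 reads). In the same group, replicate 3 was high for Ccl2 (43.0 CPM, 9 reads) and Icam1 (14.3 CPM, 3 reads), and replicate 4 for Cxcl2 (8.66 CPM, 1 read).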

How the results depend on the processing

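The number of members called higher in GFP+ thyroid over the 3 ages, 5, was 5 or 6 under the other settings and 4 to 5 when each library was left out, but 1 under the stricter filter, where 3 members were tested. At 3 months the count of 5 became 2 with DESeq2, 0 without a filter on low counts, 1 under the stricter filter, and 1 to 5 with each library left out. At 6 months the count of 4 became 0 without a filter, 1 under the stricter filter, and 2 to 5 with each library left out. Members called in the interaction with age went from 0 to 1 without the libraries under 10000 gene reads. Within GFP− cells, the 1 member called between 9 and 3 months became 0 with DESeq2, with its size factors, without a filter, with all 28 libraries in 1 fit and without ribosomal RNA rows, 2 without the libraries under 10000 gene reads, and 0 to 1 with each library left out. Over the 3 ages within GFP− cells, 0 became 1 under the stricter filter, 3 without the libraries under 10000 gene reads, and 0 to 2 with each library left out. For thyroid against salivary gland, the 2 members called in GFP+ cells became 0 without a filter and under the stricter filter, and 0 to 2 with each library left out. The 1 called in GFP− cells became 0 without a filter and with all 28 libraries in 1 fit, 2 without the libraries under 10000 gene reads or without ribosomal RNA rows, and 0 to 2 with each library left out. Where fewer genes or libraries were tested, the alternative itself sets part of the change; otherwise the cause was not tested.

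Same-numbered GFP+ and GFP− libraries correlated above 0.1 in 3 of 11 thyroid pairs (r from −0.089 to 0.351), and 5 of 11 GFP+ libraries matched their own number best, so the numbers were not taken as pairs. In salivary gland 2 of 3 pairs were above 0.1, and 3 of 3 GFP+ libraries matched their own number best. With the replicate block, members called stayed at 5 over the 3 ages and became 0 at 3 months, 0 at 6 months, 0 between 9 and 3 months in GFP− cells, and 0 between glands in GFP− cells. It called 188 genes over the 3 ages against 383, 45 against 184 at 3 months and 11 against 135 at 6 months.

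The direction of small fold changes was not stable. Nfkbia was 0.048 over the 3 ages, 0.015 at 3 months and −0.13 at 9 months without the libraries under 10000 gene reads, −0.11 at 9 months under the stricter filter and −0.20 at 6 months with the block, and ranged from −0.21 to 0.32 at 6 months and from −0.16 to 0.54 at 9 months with each library left out. Nfkbiz was −0.027 at 3 months with the block, and ranged from −0.014 to 0.66 at 3 months and from −0.028 to 0.36 at 6 months with each library left out. Cxcl12 at 3 months was 0.13 without the libraries under 10000 gene reads. In that setting the median of all genes moved by 0.11 over the 3 ages, 0.28 at 3 months and 0.20 at 6 months. Over all settings, genes called ran from 63 to 489 over the 3 ages (383 as reported), 22 to 232 at 3 months (184), 10 to 234 at 6 months (135), 3 to 53 at 9 months (36), 1 to 20 for the interaction with age (3), 1 to 24 and 1 to 49 between 9 and 3 months in GFP+ and GFP− cells (18 and 13), 7 to 56 and 1 to 117 over the ages in GFP+ and GFP− cells (30 and 29), and 21 to 198 and 21 to 208 between glands in GFP+ and GFP− cells (142 and 138). Mean levels moved by over 1 SD for 26 of 100 values of a member in a group without ribosomal RNA rows in the total, and for 4 of 100 when libraries were pooled.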
